A study of Mus musculus with 2 samples.

Results

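To describe the adipogenic program in the RNA-Seq data, 10 genes were examined in the deposited count table of 24421 rows: the transcriptional regulators *Pparg*, *Cebpa*, *Cebpb* and *Cebpd*, the lipid uptake and transport genes *Lpl*, *Cd36* and *Fabp4*, the lipid droplet genes *Plin1* and *Plin2*, and the adipokine gene *Adipoq*. They were chosen by name, and all 10 were found in the table. The data comprised 1 library of primary chondrocytes from the rib cartilage of newborn mice, released with collagenase and kept for no more than 2 passages, and 1 library of primary dermal fibroblasts, released with collagenase from the dorsal skin of newborn mice. No allele or agent is named for either library. The strain, the number of animals pooled and the passage of the fibroblasts are not given in the sources used here, and neither preparation is said to have been sorted.

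Adipogenesis is driven by a cascade of transcription factors. C/EBPβ and C/EBPδ appear early after induction and raise the expression of PPARγ and C/EBPα, which then maintain each other and activate the genes of lipid uptake and storage. Dermal fibroblasts of newborn skin include the precursors of the intradermal fat layer, whereas cartilage holds no adipocytes of its own.

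The counts summed to 18788599 in chondrocytes and 17563724 in dermal fibroblasts. They were scaled with edgeR TMM factors and are given either as deposited or as counts per 1000000 counts of the scaled library (CPM). A fold is the ratio of the scaled counts of both libraries, and its 95% Clopper-Pearson interval covers counting error only. A gene was called when its fold was over 2. With a single library for each cell type, the differences below have no replicate check, and no p-value was computed. The labels were first checked against defining markers. All 10 chondrocyte markers were over 2-fold higher in the chondrocyte library, where *Col2a1* had 1447098 counts against 0, and *Matn1* was also at 0 in dermal fibroblasts. Of the 10 dermal fibroblast markers, 9 were over 2-fold higher in the dermal fibroblast library, where *Col1a1* had 322379 counts against 39143.

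All 10 adipogenic genes had at least 100 counts in each library. Of these, 4 were over 2-fold higher in dermal fibroblasts (*Adipoq*, *Lpl*, *Plin2* and *Fabp4*), none was over 2-fold higher in chondrocytes, and 6 lay within 2-fold. Among the 17718 genes with a count in at least 1 library, the share over 2-fold higher was 13.9% in dermal fibroblasts and 10.7% in chondrocytes. Among the 11811 genes with at least 100 summed counts, these shares were 13.3% and 8.76%. The median log2 fold of dermal fibroblasts over chondrocytes was 0.77 for the 10 genes, against -0.0029 for the genes with at least 100 summed counts. In a bulk library, fewer cells of a type and less RNA per cell cannot be told apart.

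**Figure D1:**
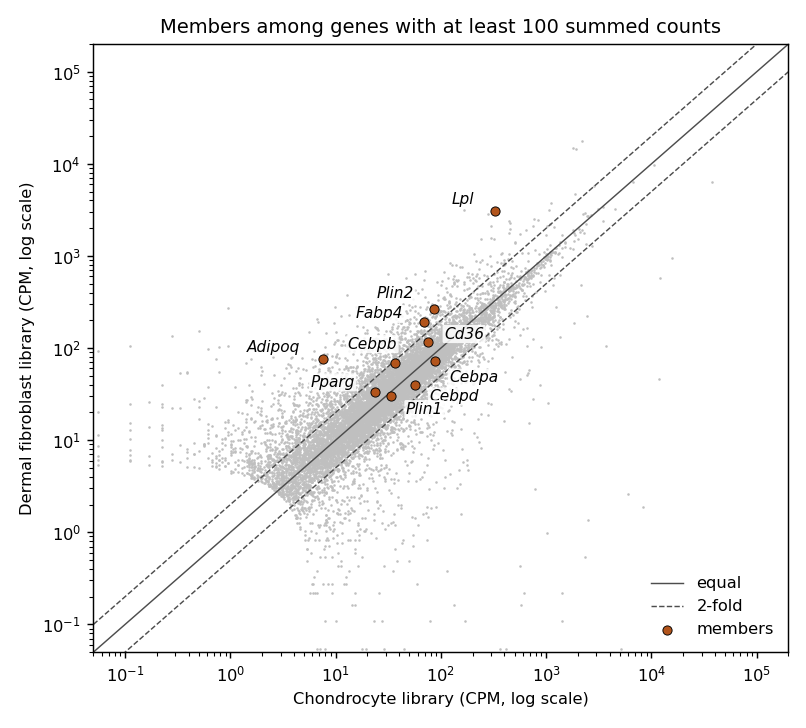
Each grey point is a gene with at least 100 summed counts and a count above 0 in both libraries, with its level in chondrocytes on the horizontal axis and in dermal fibroblasts on the vertical axis (CPM, log scales), and the orange points are the 10 adipogenic genes. *Adipoq*, *Lpl*, *Plin2* and *Fabp4* lie above the upper 2-fold line, and the 4 regulators lie between the dashed lines.

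The 4 regulators differed by less than 2-fold, and the interval of each lay clear of equality. Their summed level was 204 CPM in chondrocytes and 215 CPM in dermal fibroblasts, a ratio of 1.05. Within this sum the members went in different directions, since *Cebpb* and *Pparg* were higher in dermal fibroblasts and *Cebpa* and *Cebpd* were higher in chondrocytes.

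*Pparg* (chromosome 6 of GRCm38.p6, 115360879 to 115490404) encodes the nuclear receptor PPARγ, which is required for fat cell formation. It had 427 counts in chondrocytes against 610 in dermal fibroblasts, and was 1.39-fold higher in dermal fibroblasts (counting interval 1.23 to 1.58). RefSeq gives 3 start sites for this gene, and counts per gene do not separate the transcripts that begin at each.

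*Cebpa* (chromosome 7, 35119293 to 35121928) encodes C/EBPα, the partner of PPARγ in maintaining the adipocyte state. It had 1566 counts in chondrocytes against 1348 in dermal fibroblasts, which is 1.19-fold higher in chondrocytes (interval 1.11 to 1.28). *Cebpd* (chromosome 16, 15887286 to 15889545), an early regulator of the cascade, had 1017 counts in chondrocytes against 735 in dermal fibroblasts and was 1.42-fold higher in chondrocytes (interval 1.29 to 1.56). It was the member with the largest fold toward chondrocytes. The *Cebpd* span shares 322 bp with that of *Spidr*, which had 460 counts in chondrocytes against 418 in dermal fibroblasts, and the sources used here do not state how reads in shared bases were counted.

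*Cebpb* (chromosome 2, 167688915 to 167690432), the other early regulator, had 650 counts in chondrocytes against 1266 in dermal fibroblasts. It was 1.90-fold higher in dermal fibroblasts, and its interval of 1.72 to 2.09 included 2-fold. Scaling by total counts placed it at a log2 fold of 1.06, just over the threshold. The 2 early regulators *Cebpb* and *Cebpd* thus differed in opposite directions, and both intervals lay clear of equality.

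The genes of lipid uptake and transport showed a wide range of differences, from 1.54-fold for *Cd36* to 9.28-fold for *Lpl*. *Lpl* (chromosome 8, 68880555 to 68906932) encodes lipoprotein lipase, the secreted enzyme that releases fatty acids from circulating triglycerides. It had 5900 counts in chondrocytes against 56245 in dermal fibroblasts (329 and 3055 CPM). Its interval was 9.04 to 9.54. By count, not per length, *Lpl* ranked 15th of all genes in dermal fibroblasts and 413th in chondrocytes. It took 77.3% of the reads of the 10 genes in dermal fibroblasts and 40.8% in chondrocytes. Without it, the summed level of the other 9 genes was 477 CPM in chondrocytes and 895 CPM in dermal fibroblasts, a ratio of 1.88.

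*Fabp4* (chromosome 3, 10204342 to 10208616) encodes a cytosolic fatty acid carrier that is abundant in adipocytes and is also made by macrophages and capillary endothelium. It had 1251 counts in chondrocytes against 3525 in dermal fibroblasts and was 2.74-fold higher in dermal fibroblasts (counting interval 2.57 to 2.93). *Cd36* (chromosome 5, 17781690 to 17888959), a fatty acid receptor at the plasma membrane of adipocytes, muscle, macrophages and endothelium, had 1347 counts in chondrocytes against 2133 in dermal fibroblasts. Its fold was 1.54 (interval 1.44 to 1.65), so that it was higher in dermal fibroblasts but did not pass 2-fold. The ratio of *Lpl* to *Fabp4* counts, not per length, was 4.72 in chondrocytes and 15.96 in dermal fibroblasts. Per length, as given below, *Fabp4* was the higher of the 2 in chondrocytes.

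The 2 perilipins differed from each other. *Plin2* (chromosome 4, 86626910 to 86670217) encodes the lipid droplet coat protein found in many cell types. It had 1556 counts in chondrocytes against 4910 in dermal fibroblasts and was 3.07-fold higher in dermal fibroblasts (counting interval 2.90 to 3.25). Its span shares 5312 bp with the pseudogene *Gm12551*, for which no count is given. *Plin1* (chromosome 7, 79721164 to 79732904), the perilipin of adipocyte droplets and the gatekeeper of hormone-stimulated lipolysis, had 607 counts in chondrocytes against 562 in dermal fibroblasts. Its fold of chondrocytes over dermal fibroblasts was 1.11, and the interval of 0.987 to 1.25 included equality. It was the only one of the 10 genes whose interval did so.

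*Adipoq* (chromosome 16, 23146536 to 23157968) encodes adiponectin, a hormone secreted by adipocytes. It had 136 counts in chondrocytes, the fewest of the 10 genes there, and 1397 in dermal fibroblasts. The fold of 10.001 (interval 8.38 to 12.0) was the largest among the members, and its interval overlapped that of *Lpl*. Of the 11811 genes with at least 100 summed counts, 195 had a larger fold toward dermal fibroblasts than *Adipoq* and 215 a larger one than *Lpl*. Both *Adipoq* and *Plin1* are used as markers of mature adipocytes, yet the count ratio of *Adipoq* to *Plin1* was 0.224 in chondrocytes and 2.49 in dermal fibroblasts, an 11.1-fold difference. In contrast, the ratio of *Lpl* to *Adipoq* counts, not per length, was 43.4 in chondrocytes and 40.3 in dermal fibroblasts.

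**Figure D2:**
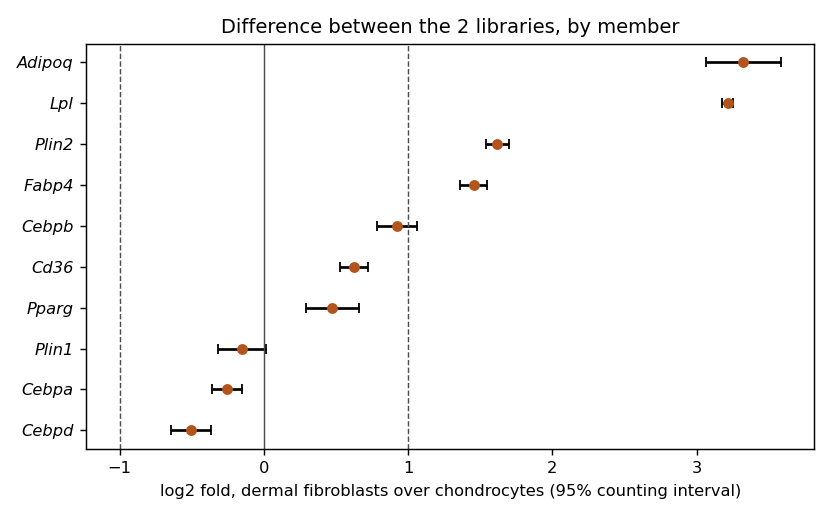
Each point is the log2 fold of dermal fibroblasts over chondrocytes for 1 gene, from 1 library per cell type, and the bars are 95% counting intervals. The order runs from *Cebpd* at -0.51 to *Adipoq* at 3.32, the dashed lines mark 2-fold, and the bar of *Plin1* crosses 0.

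To set members with unlike folds beside their regulatory sequence, the 250 bases before the RefSeq start site were read for *Adipoq* and *Plin1*, whose ratio differed between the libraries, for *Plin2*, the relative of *Plin1*, and for the downstream start of *Pparg*, from which the adipocyte form PPARγ2 is made. Entries were matched for 7 of the 10 members, with 9 start sites in all. Capitals mark matches on either strand to the CCAAT box, to the TATA box (TATAAA) or to TTGCNNAA, a pattern that includes the palindrome bound by C/EBP proteins. Each sequence runs 5′ to 3′ in the direction of the gene in GRCm38.p6.
Adipoq, chr16:23146286-23146535, plus strand: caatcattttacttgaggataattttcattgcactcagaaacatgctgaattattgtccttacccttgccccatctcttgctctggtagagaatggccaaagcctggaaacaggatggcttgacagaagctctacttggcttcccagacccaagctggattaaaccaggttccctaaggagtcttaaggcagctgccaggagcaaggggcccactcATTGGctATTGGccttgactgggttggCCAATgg
Plin1, chr7:79732777-79733026, minus strand: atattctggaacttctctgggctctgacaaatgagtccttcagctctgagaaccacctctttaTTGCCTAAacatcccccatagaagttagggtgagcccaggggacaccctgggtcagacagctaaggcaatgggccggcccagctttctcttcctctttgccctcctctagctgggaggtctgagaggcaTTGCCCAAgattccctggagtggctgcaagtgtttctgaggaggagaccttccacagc
Plin2, chr4:86670060-86670309, minus strand: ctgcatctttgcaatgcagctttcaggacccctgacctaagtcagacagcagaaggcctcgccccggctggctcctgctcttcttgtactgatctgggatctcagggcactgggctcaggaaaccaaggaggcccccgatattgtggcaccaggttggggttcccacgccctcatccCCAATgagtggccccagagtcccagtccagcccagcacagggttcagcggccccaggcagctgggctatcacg
Pparg, chr6:115421816-115422065, plus strand: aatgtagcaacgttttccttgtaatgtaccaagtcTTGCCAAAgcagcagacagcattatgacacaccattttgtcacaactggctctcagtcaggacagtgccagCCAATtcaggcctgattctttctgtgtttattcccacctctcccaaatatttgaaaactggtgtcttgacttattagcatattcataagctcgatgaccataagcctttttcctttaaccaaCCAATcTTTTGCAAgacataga

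The *Adipoq* window held 3 CCAAT matches, which begin at positions -34, -27 and -7. The *Plin1* window held 2 TTGCNNAA matches, which begin at positions -187 and -58, counted back from the start site. The *Plin2* window held 1 CCAAT match, and the *Pparg* window held 2 CCAAT and 2 TTGCNNAA matches. The pattern TTGCNNAA was found in 2 of the 9 windows of the members, those of *Plin1* and of the downstream *Pparg* start, and in 9.56% of 32851 windows of the same length across all genes. CCAAT was found in 5 of the 9 windows and in 33.8% of all windows, and TATAAA in 2 of the 9 and in 12.4% of all. A PPAR and RXR pattern of 2 AGGTCA repeats in the same direction with 1 base between them was in none of the 9 windows and in 0.0335% of all. These matches describe letters in short windows, and binding at them was not measured here.

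Levels of different genes can be compared only per length, so the scaled counts were divided by the exon length of each gene in GENCODE vM1, a choice made after the data were seen. In dermal fibroblasts *Lpl* was the most abundant member per length at 449 CPM per kb of exon, followed by *Fabp4* at 301, *Plin2* at 75.9, *Adipoq* at 54.9 and *Cebpb* at 45.7. *Cebpd* (33.8), *Cd36* (29.5), *Cebpa* (27.8), *Pparg* (16.7) and *Plin1* (15.9) came last. In chondrocytes *Fabp4* led at 110 CPM per kb, followed by *Lpl* at 48.3, *Cebpd* at 48.1, *Cebpa* at 33.2, *Plin2* at 24.7 and *Cebpb* at 24.1. *Cd36* (19.1), *Plin1* (17.7), *Pparg* (12.0) and *Adipoq* (5.49) followed. In chondrocytes, the counting intervals overlapped for the neighbours *Lpl* and *Cebpd*, *Plin2* and *Cebpb*, and *Cd36* and *Plin1*. In dermal fibroblasts they overlapped for *Cd36* and *Cebpa*, and for *Pparg* and *Plin1*. *Adipoq* thus stood last of the members in chondrocytes and behind *Lpl*, *Fabp4* and *Plin2* in dermal fibroblasts, and *Plin1* stood last in dermal fibroblasts. These levels depend on the annotated length, which for *Cebpd* is 1180 bp here against a RefSeq span of 2260 bp.

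**Figure D3:**
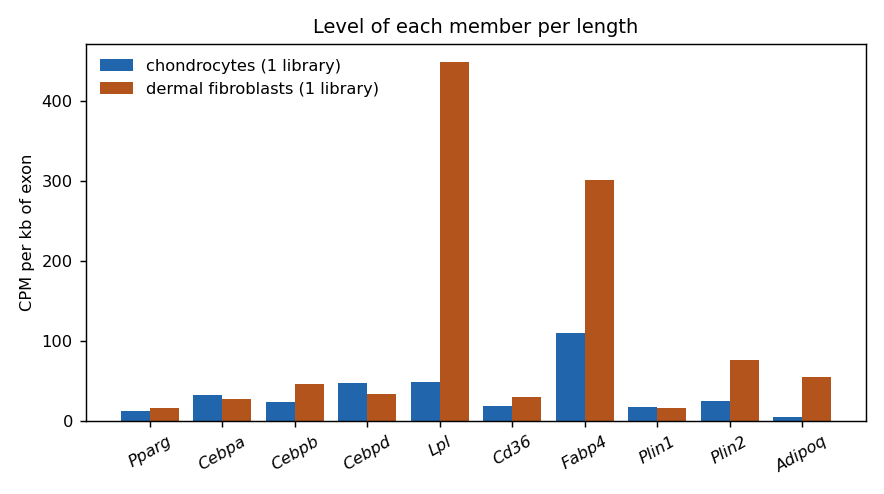
Bars give the level of each gene in CPM per kb of exon in chondrocytes (blue) and dermal fibroblasts (orange), 1 library each, with no error bars because there are no replicates. *Lpl* and *Fabp4* stand above the other genes in dermal fibroblasts at 449 and 301, and *Fabp4* leads in chondrocytes at 110.

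The wider pathway was examined with 7 lists that held 110 other genes, of which 4 had 3 counts or fewer in both libraries and have no fold. Of the 110, 29 were called in dermal fibroblasts and 17 in chondrocytes, or 23 and 11 where the whole interval had to lie beyond 2-fold, and the median log2 fold of the 106 others was 0.16. Over all 17718 genes, the shares called were 13.9% and 10.7%, and small counts in single lists, such as 2 and 1 of 13 genes, lie near these shares. No share over all genes was computed for the counts with the whole interval beyond 2-fold. The lists differed in how their genes divided, and the list of lipolysis genes had the highest median and the list of adipogenesis inhibitors the lowest.

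Among the 13 relatives and partners of the C/EBP and PPAR factors, 2 were over 2-fold higher in dermal fibroblasts and 1 in chondrocytes, and the latter count was 0 to 2 under other scalings. With the whole interval beyond 2-fold, 1 and 0 genes were left. *Ddit3*, a C/EBP relative induced by stress, had 2340 and 2438 counts in chondrocytes and dermal fibroblasts. *Rxra*, which encodes the retinoid receptor that pairs with PPARγ, had 1650 and 2430 counts and a fold of 1.43 toward dermal fibroblasts. *Nr1h3*, which encodes the oxysterol receptor LXRα, had 55 and 240 counts and was 4.25-fold higher in dermal fibroblasts (counting interval 3.16 to 5.80).

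Of 20 further transcription factors that promote adipogenesis, 4 were over 2-fold higher in dermal fibroblasts and 5 in chondrocytes, or 2 and 4 with the whole interval beyond 2-fold. *Klf6* had 2362 counts in chondrocytes against 4957 in dermal fibroblasts and was 2.04-fold higher in the latter (interval 1.95 to 2.15), and *Srebf1*, a regulator of lipid synthesis, had 2365 and 3577 counts and a fold of 1.47. *Prdm16*, known for specifying brown fat, went the other way, with 342 counts in chondrocytes against 26 in dermal fibroblasts, and was 13.5-fold higher in chondrocytes (interval 9.06 to 21.0). *Ebf2*, another factor of the brown and beige lineage that was named after its values were seen, had 475 and 131 counts and was 3.72-fold higher in chondrocytes.

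Of the 17 inhibitors of adipogenesis, 3 were over 2-fold higher in dermal fibroblasts and 4 in chondrocytes, or 2 and 3 with the whole interval beyond 2-fold. The 3 in dermal fibroblasts, named after their values were seen, were *Hes1* (3.82-fold), *Twist1* (3.49-fold) and *Gata3*. *Gata3* had 7 and 18 counts, and its interval of 0.998 to 7.09 included equality. *Dlk1*, the preadipocyte factor Pref-1 that is also expressed in other embryonic tissues, had 22110 counts in chondrocytes against 5106 in dermal fibroblasts and was 4.45-fold higher in chondrocytes (interval 4.31 to 4.59). *Gata2*, which holds precursors at the preadipocyte stage, had 155 and 21 counts and was 7.58-fold higher in chondrocytes (interval 4.79 to 12.6). *Trib3* and *Klf3* lay near equality, with folds of 1.10 and 1.09.

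Of the 18 genes of fatty acid uptake and binding, 6 were over 2-fold higher in dermal fibroblasts and 1 in chondrocytes (6 and 0 with the whole interval beyond 2-fold), with a median log2 fold of 0.55. *Slc27a1*, a fatty acid transporter, had 175 counts in chondrocytes against 1307 in dermal fibroblasts (7.27-fold, interval 6.21 to 8.56). *Fabp5*, a relative of *Fabp4* abundant in epidermis, had 1784 and 4600 counts (2.51-fold). *Vldlr*, a receptor for triglyceride-rich particles, had 2832 and 1566 counts and a fold of 1.86 toward chondrocytes.

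Of the 14 other lipid droplet genes, 5 were called in dermal fibroblasts and 1 in chondrocytes, or 5 and 0 with the whole interval beyond 2-fold. *Cidec*, which encodes the fusion factor of large adipocyte droplets, had 24 and 189 counts in chondrocytes and dermal fibroblasts, a 7.67-fold difference (interval 4.999 to 12.3). *Cav1* had 2527 and 9742 counts (3.75-fold), and its caveolar partner *Cavin1* had 8113 and 10541 (1.27-fold). Of the other perilipins, *Plin4* had 342 and 2649 counts (7.54-fold), *Plin3* had 798 and 1984 (2.42-fold) and *Plin5* had 0 and 4, and these 3 were named after their values were seen. Across the 5 perilipins, therefore, *Plin2*, *Plin3* and *Plin4* were over 2-fold higher in dermal fibroblasts, and *Plin1* was not. *Plin5* had too few counts to be placed, since its fold of 1.30 was set by the floor of 3 counts. Its interval began at 0.643 and had no upper limit. With a floor of 1 count, 6 genes of this list rather than 5 were called in dermal fibroblasts.

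Of the 17 genes of triglyceride synthesis, 4 were over 2-fold higher in dermal fibroblasts and 3 in chondrocytes, with a median log2 fold of 0.03 for the 16 genes over 3 counts. Of these 4, *Gpam* (2.01-fold) and *Lpin1* (2.004-fold), named after their values were seen, lay at the threshold. Scaling by the upper quartile, without the 10 most abundant genes or by *Actb* left 2 genes called in dermal fibroblasts, against 3, 3 and 4 in chondrocytes, and 2 in each had their whole interval beyond 2-fold. Of the genes with the most counts, *Gpat4*, which adds the first acyl chain to glycerol phosphate, had 2154 and 2125 counts and an interval that included equality. *Bscl2*, which encodes the droplet biogenesis factor seipin, was 1.20-fold higher in chondrocytes. *Pck1*, an enzyme of glycerol synthesis in fat, had 15 counts in chondrocytes against 146 in dermal fibroblasts (9.48-fold, interval 5.56 to 17.4). Of the 11 genes of lipolysis, 5 were over 2-fold higher in dermal fibroblasts and 2 in chondrocytes, with a median log2 fold of 0.98. *Pnpla2*, the adipose triglyceride lipase, had 454 and 1296 counts (2.78-fold), and its activator *Abhd5* had 655 and 1599 (2.38-fold). The inhibitor of this lipase, *G0s2*, had 1620 counts in chondrocytes against 293 in dermal fibroblasts and was 5.68-fold higher in chondrocytes (interval 5.01 to 6.45). The lipase, its activator and its inhibitor were therefore all called, the inhibitor in the opposite direction. *Pnpla3* had the largest fold of the list, with 21 and 368 counts and a 17.1-fold difference toward dermal fibroblasts (interval 10.996 to 27.9).

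**Figure D4:**
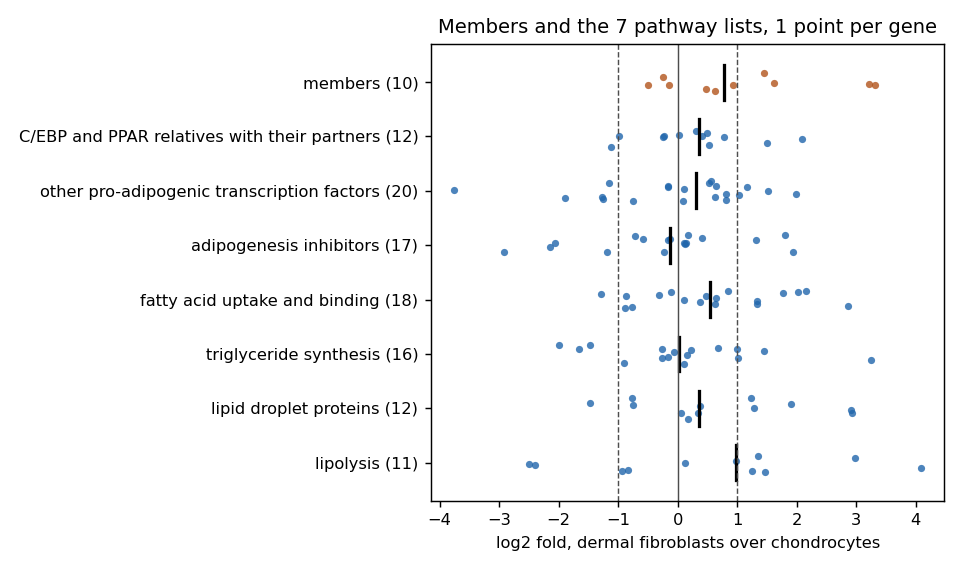
Each point is the log2 fold of dermal fibroblasts over chondrocytes of 1 gene with over 3 counts in at least 1 library, black bars are list medians, dashed lines mark 2-fold, and the number of genes drawn is in parentheses. The 10 members (orange, median 0.77) extend from -0.51 to 3.32, the lipolysis genes spread from -2.51 to 4.09, and the triglyceride synthesis genes center near 0.

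Since the members are also expressed by other cell types, markers of these cells were compared between the libraries. All 14 mature adipocyte markers had a count in both libraries. Of these, 11 were over 2-fold higher in dermal fibroblasts and none in chondrocytes, while *Plin1* and, named after their values were seen, *Slc2a4* (1.67-fold) and *Lgals12* (1.37-fold) lay within 2-fold. Their summed level was 159 CPM in chondrocytes and 454 CPM in dermal fibroblasts. *Car3* had the highest level in each, by count and per length, with 1396 and 3112 counts. It alone gave 77.9 CPM of the sum in chondrocytes and 169 CPM of that in dermal fibroblasts. *Cfd*, the adipocyte protease adipsin, had 106 and 1394 counts and was 12.8-fold higher in dermal fibroblasts (counting interval 10.5 to 15.8). *Lep*, which encodes leptin, had 1 count in chondrocytes and 7 in dermal fibroblasts, so that its call rests on few reads. *Adipoq* and *Plin1* are on this list, as are 5 genes of the pathway lists. Of the 12 markers that are not members, 10 were over 2-fold higher in dermal fibroblasts, with a median log2 fold of 1.76.

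Of the 12 macrophage markers, 2 were over 2-fold higher in dermal fibroblasts, which lies near the share of 13.9% over all 17718 genes. The summed level was 137 CPM in chondrocytes and 235 CPM in dermal fibroblasts, with the most counts from *Lyz2* (1046 and 1639). Of the 10 endothelial markers, 8 were over 2-fold higher in dermal fibroblasts, and the summed level was 23.3 and 81.7 CPM. *Flt1* had the most counts (97 and 446), while per length *Cdh5* was highest in both libraries, at 0.952 and 2.70 CPM per kb. No marker of either list was at 0. Of the 12 skeletal muscle markers, 6 were over 2-fold higher in chondrocytes and 6 lay within 2-fold, with summed levels of 2158 and 1503 CPM. Of the latter 6, *Actc1* (1.06-fold) and *Ckm* (1.43-fold, named after its values were seen) had intervals clear of equality toward dermal fibroblasts, and scaling by *Actb* turns the direction of *Actc1*. Per length *Actc1* was the highest of them in both libraries, at 251 and 268 CPM per kb (7288 and 7970 counts), and *Myh3* had the most counts in chondrocytes (7784). No muscle marker was at 0. Of the 11 keratinocyte and sebocyte markers, 5 were over 2-fold higher in dermal fibroblasts, with summed levels of 10.2 and 263 CPM. *Krt10* was highest in chondrocytes, with 72 counts, and *Krt14* in dermal fibroblasts, with 1939, by count and per length, and *Krt79*, *Mc5r* and *Scd3* were at 0 in chondrocytes. The part of these cells in the counts of *Lpl*, *Fabp4*, *Cd36*, *Plin2* and *Adipoq* was not tested.

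**Figure D5:**
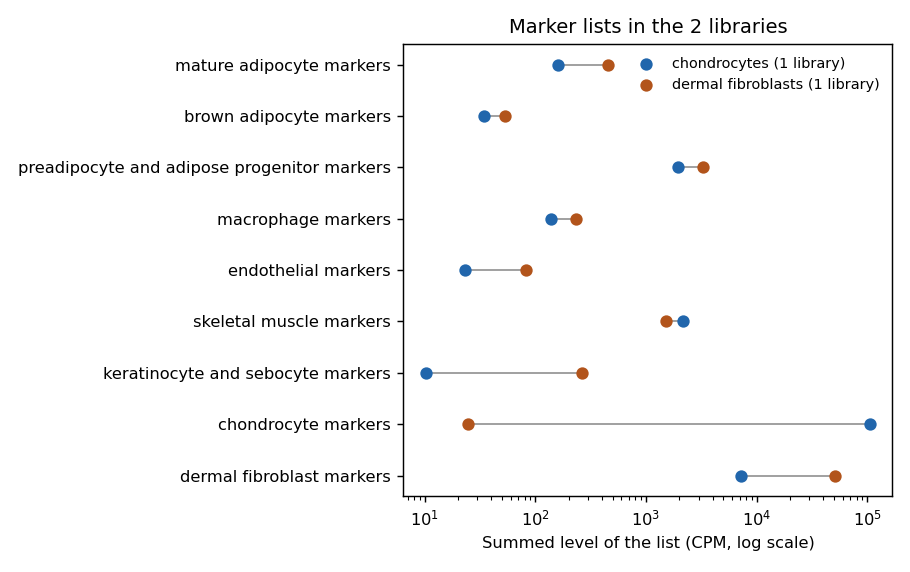
Each row is a marker list and each point its summed level in 1 library (CPM, log scale), blue for chondrocytes and orange for dermal fibroblasts. The summed levels of adipocyte, macrophage, endothelial and keratinocyte markers were higher in dermal fibroblasts, and those of muscle and chondrocyte markers were higher in chondrocytes. The adipocyte list had 159 and 454 CPM, of which *Car3* gave 77.9 and 169.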

How the data were processed

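RNA-Seq was analyzed in 1 library of primary chondrocytes and 1 of primary dermal fibroblasts. Per the labels, the authors prepared stranded mRNA libraries and processed the reads with CASAVA 1.8.2, TopHat2 2.0.13, Bowtie2 2.2.3 and SAMtools 0.1.19 on mm10, and they deposited raw read counts per gene symbol. The counting program, its annotation and its strand setting are not given in the sources used here. Of 24421 rows, 6703 were 0 in both libraries, and 27 carried a date as symbol and were kept but not named. Both count columns were mapped to their sample.

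TMM factors were computed with edgeR 4.0.16 in R 4.3.3 (0.954 for chondrocytes and 1.05 for dermal fibroblasts). For folds, a floor of 3 counts replaced lower values, and intervals were 95% Clopper-Pearson intervals computed with Python 3.11.15 and scipy 1.17.1. The reads carry no molecular identifiers and are not independent molecules, so intervals cover counting error only. The calculations were tested on simulated data. Alternatives were 5 other scalings (including DESeq2 1.42.0 size factors), floors of 1 and 10 counts, a pseudocount of 1, genes with at least 10 summed counts, a fold over 4 and the whole interval beyond 2-fold. Named list genes were the 3 with the most scaled counts in each list and the one with the largest absolute log2 fold among genes with at least 100 summed counts, unless stated otherwise. A gene that this rule names is not reported here. The members and lists were chosen with earlier results of these data known. The genes *Gpat3*, *Gpat4* and *Cavin1* were matched by older symbols. Positions and sequences are from RefSeq (GRCm38.p6). Exon lengths are from GENCODE vM1, which is annotated on NCBIM37 and may differ from the gene models the authors used. They were chosen after seeing the data and were used for lengths only.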

Additional observations from a re-analysis of the deposited data

How the results depend on the processing

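Single choices were varied in turn. No paired analysis was possible because there was 1 library of each kind, and no replicate could be left out. With a fold over 4, which removes genes by construction, 2 of the 10 members (*Adipoq* and *Lpl*) were higher in dermal fibroblasts, and 9 and 6 of the 110 pathway genes were higher in dermal fibroblasts and chondrocytes. With the whole interval beyond 2-fold, 11 pathway genes were higher in chondrocytes. The other alternatives left these counts within 1.5 times, and no member was called in chondrocytes under any of the 11. Total counts shifted all log2 folds by 0.14 toward dermal fibroblasts and *Actb* by 0.12 toward chondrocytes. The median of the members ranged from 0.65 to 0.91, and *Cebpb* from 0.80 to 1.06. Of 90 log2 folds of members, 11 left the counting interval and none reversed. The floors and the filter of 10 summed counts could not move a member, since each had at least 100 counts in each library. A reversal was counted only for members over 2-fold, which shifts of this size cannot turn, so its absence was fixed in advance. Of 352 counts of single lists, 36 moved by over 1.5 times. Depth limits genes with few reads, such as *Lep* and *Plin5*, and variation between animals or cultures was not measured.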

Other observations

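The preadipocyte list divided between the libraries. Of the 12 preadipocyte and adipose progenitor markers, 10 were over 2-fold higher in dermal fibroblasts and 2 in chondrocytes. Over all 17718 genes, these shares were 13.9% and 10.7%. With the whole interval beyond 2-fold, 8 and 2 of the markers were left. *Pdgfra*, named after its values were seen, is also on the dermal fibroblast list, so the 2 lists are not independent. The summed levels were 3278 CPM in dermal fibroblasts and 1956 CPM in chondrocytes, and *Dlk1* gave 22110 of the 35064 counts in chondrocytes. *Ly6a*, which encodes the progenitor surface protein Sca-1, had 1268 counts in chondrocytes against 12498 in dermal fibroblasts and was 9.60-fold higher in dermal fibroblasts (counting interval 9.06 to 10.2). *Pdgfrb*, the receptor of mural and stromal precursors, had 3719 and 19453 counts (5.09-fold). *Dlk1* and *Cd24a*, which also mark other immature cells, were the 2 genes higher in chondrocytes, and *Cd24a* had 2803 and 243 counts (11.8-fold, interval 10.4 to 13.6).

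The brown adipocyte list was mixed. Of its 10 genes, 3 were called in dermal fibroblasts and 5 in chondrocytes, or 3 in each with the whole interval beyond 2-fold, and *Ucp1*, the defining uncoupling protein of brown fat, had 2 counts in chondrocytes against 0 in dermal fibroblasts. A count of 0 allows up to 3 counts in that library. Next to *Prdm16*, the genes with the most counts were *Zic1*, with 54 and 730 counts (13.2-fold higher in dermal fibroblasts), and *Lhx8*, with 5 and 93 counts (18.1-fold higher, interval 7.49 to 57.1), and both encode transcription factors that also pattern other tissues.

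Among 11810 gene symbols with at least 100 summed counts, the genes nearest to *Pparg* in log2 CPM in both libraries were *Mier2* (428 and 609 counts), *Dlg3* (426 and 613) and *Mphosph8* (427 and 601). With 2 libraries this likeness rests on 2 values per gene, and it is given as a description.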
